A study of Mus musculus with 7 samples.

Results

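In-frame and out-of-frame V(D)J joins of the mouse immunoglobulin heavy chain locus (Igh) were compared within each of 7 libraries of pro-B cells. A join was taken from each sequenced junction between JH4 and chromosome 12 positions 114830800 to 117838107 in the orientation that deletes the DNA in between. Its length was counted from the first base of the codon for the conserved cysteine (Cys) at the end of framework 3 of the V segment to the last base before the tryptophan (Trp) codon of JH4, whose first base lies at 114671107. A join was called in frame where this length was divisible by 3. Of 264791 junctions in the series, 95203 lay in the V range and 90661 of those had both codons, 50659 in frame and 40002 out of frame. Members were thus chosen by the measured length of each join, so lengths and trimming are described without a test, and V use, D use, D frame and stop codons were tested.

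V(D)J recombination joins a D to a JH segment and then a V segment to the DJ join, and bases are lost and added at random at each end. A join can encode a heavy chain only if V and JH4 share a reading frame and no stop codon lies between them. A pro-B cell whose join encodes no heavy chain can rearrange its other allele, and a cell in which a heavy chain assembles with the surrogate light chain goes on to divide, so out-of-frame joins are commonly read as a record of recombination before that step.

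The assay was high-throughput genome-wide translocation sequencing (HTGTS), in which a chosen bait, here the JH4 coding end, is used to sequence whatever DNA was ligated to it in the cell. The genomic DNA was that of B220+CD43highIgM- pro-B cells sorted from the bone marrow of mice aged 4 to 6 weeks on the 129SVE background. The groups were WT (3 libraries) and VH81X-CBEscr/scr (4 libraries), a genotype whose name the labels do not spell out and which the series title links to CTCF-binding elements. Genotypes are not compared here, and both frame classes of a library come from the same cells.

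Libraries held 31986 to 46915 junctions, of which 71.8% to 84.8% were marked as duplicates by the depositors' pipeline and were counted all the same. A frame could be given to 94.7% to 95.6% of V junctions, or 10375 to 16067 joins in a library. Of the others, 2657 had lost the Cys codon, 990 had lost the Trp codon and 458 used a V segment in which no Cys codon was found. The Cys codon was read at its expected place in 99.7% of joins and the Trp codon in 99.3%. The same V segment and CDR3 sequence was found in 2 libraries for 17 of 51343 distinct pairs. Whether each library is a separate mouse is not stated in the labels. A p-value here therefore reflects only how far the within-library difference between the classes varies over these libraries, which may be technical.

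The sequences that set the frame and the stop codons follow, each on the coding strand, which is the minus strand of chromosome 12, and as read in the deposited junctions. Positions follow the deposited files, whose genome build is mm9 per the submitters' processing notes. The first set gives the end of a V segment from its Cys codon (capitals) onward, for segments with few and with many in-frame joins and for Ighv1-2, where the TGA in capitals is a stop codon of the V segment itself. They lie at chr12:114836377-114836387 (VH81X), chr12:114846142-114846152 (Ighv2-2), chr12:116240676-116240684 (Ighv1-11), chr12:116065104-116065112 (V_116065104), chr12:117276378-117276390 (Ighv8-12) and chr12:116097508-116097516 (Ighv1-2).
VH81X: TGTgcaagaca
Ighv2-2: TGTgccagaaa
Ighv1-11: TGTggaagg
V_116065104: TGTaccagg
Ighv8-12: TGTgctcgaagag
Ighv1-2: TGTgcaTGA
JH4, from its coding end at 114671127 to the Trp codon in capitals: attactatgctatggactacTGG

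The D cores shown next are those of the 5 most used D segments that lie at a single site, plus DQ52, the D segment nearest JH. Capitals mark every TAA, TAG or TGA, in whichever of the 3 frames it falls.
DFL16.1, chr12:114734544-114734566: tttattactacggTAGTAGctac
D_114727777, chr12:114727777-114727793: tctaTGAtggttactac
D_114719358, chr12:114719358-114719374: ttcattactacggctac
D_114705399, chr12:114705399-114705415: cctactaTAGgtacgac
D_114695747, chr12:114695747-114695763: ccTAGtatggTAActac
DQ52, chr12:114673089-114673099: cTAActgggac

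An example of each class is the VH81X join with a matched D segment that had the most lines in 1 library, all 3 from WT replicate 2, shown from Cys codon to Trp codon with stop codons of the in-frame reading in capitals. The in-frame join without a stop codon was 36 bases long to the Trp codon, used D_114705399 and was read in 17 lines. The in-frame join with a stop codon was 45 bases long, used D_114695747 and was read in 12 lines. The out-of-frame join was 41 bases long, which leaves a remainder of 2, used D_114719358 and was read in 14 lines.
VH81X, in frame without a stop codon: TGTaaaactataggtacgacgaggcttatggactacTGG
VH81X, in frame with a stop codon: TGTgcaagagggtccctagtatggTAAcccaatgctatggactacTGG
VH81X, out of frame: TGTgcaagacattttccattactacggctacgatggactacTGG

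In-frame joins made up 55.6% ± 3.04 of joins with a frame (SD, n = 7 libraries), from 50.2% to 59.1% with a median of 56.2%. Lengths with no regard to frame would give 33.3%. Every library lay above that value. The out-of-frame remainder was split evenly, with 22.4% ± 1.71 of joins at a remainder of 1 base and 22.0% ± 1.40 at a remainder of 2 bases (SD, n = 7). Counted once per distinct join, the in-frame share was 56.1% ± 2.77, and among lines not marked as duplicates it was 52.6% ± 1.94 (SD, n = 7). Each distinct join was read in 1.87 ± 0.471 lines in frame and 1.92 ± 0.509 lines out of frame (SD, n = 7), and the difference did not pass an exact two-sided sign-flip permutation test over libraries (p = 0.0938). It passed without VH81X-CBEscr/scr replicate 3 (difference -0.0589 lines, exact permutation p = 0.0312).

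The distribution of CDR3 lengths had peaks spaced by 1 codon. Joins of 45 bases, or 15 codons, were 9.12% ± 0.686 of all joins, while joins of 44 and 46 bases were 3.61% ± 0.350 and 3.71% ± 0.340 (SD, n = 7). The most frequent length was 45 bases among in-frame joins and 46 among out-of-frame joins.

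**Figure D1:**
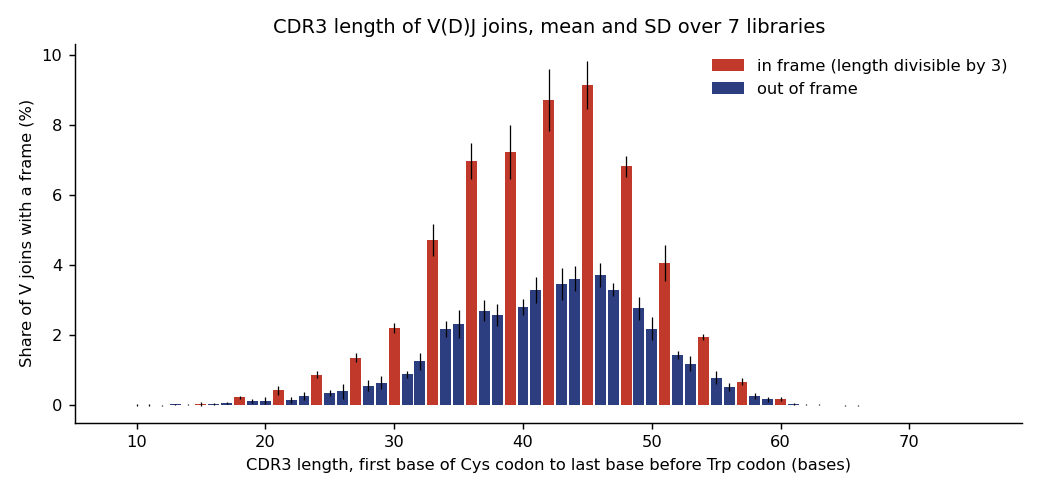
Share of V joins with a frame (%, y axis) at each CDR3 length in bases (x axis), with bars for the mean and lines for the SD over 7 libraries. Lengths divisible by 3 stand above both neighbours through the centre of the distribution, as at 45 bases (9.12%) against 44 (3.61%) and 46 (3.71%).

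Apart from the steps of 3 bases, mean lengths and trimming of the 2 classes were close, with out-of-frame joins slightly longer in every library. Mean CDR3 length was 41.2 ± 0.206 bases in frame and 41.9 ± 0.215 out of frame, and the within-library difference ran from -1.08 to -0.424 bases (in frame minus out of frame). The insert, the bases between the last V base and the first JH4 base, measured 16.7 ± 0.15 bases in frame and 17.4 ± 0.185 out of frame (SD, n = 7). Inserts hold the D segment and added bases and reach at most 30 bases in the files, a length that 1.03% ± 0.197 of in-frame and 0.884% ± 0.169 of out-of-frame joins had.

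V ends had lost 0.997 ± 0.0516 bases in frame and 1.16 ± 0.0429 out of frame, and 59.2% ± 0.848 against 54.2% ± 1.21 of V ends were whole (SD, n = 7). JH4 ends had lost 4.78 ± 0.0574 bases in frame and 4.90 ± 0.0661 out of frame (SD, n = 7), and they were whole in 13.5% of joins of either class. With marked duplicates left out the difference in JH4 trimming shrank from -0.124 to -0.0187 bases. All of these lengths enter the frame rule.

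Stop codons between V and JH4, read in the frame of the V segment, were less frequent in in-frame joins. At least 1 stop codon before the first JH4 base was found in 10.8% (lowest), 12.9% (median) and 14.7% (highest) of in-frame joins of a library, and in 24.2%, 25.7% and 26.1% of out-of-frame joins. The ranges did not overlap. The mean difference was -12.3 ± 1.89 percentage points (SD, n = 7), lower in frame in 7 of 7 libraries (exact sign-flip permutation test, two-sided, p = 0.0156, the smallest that 7 pairs allow, adjusted p = 0.0156). Per 100 codons, in-frame joins held 1.84 ± 0.208 and out-of-frame joins 3.54 ± 0.111 stop codons (SD, n = 7, adjusted p = 0.0156 by the same exact test).

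TAG was the most frequent of the stop codons, present in 45.4% ± 3.13 of the in-frame and 46.9% ± 3.12 of the out-of-frame joins with a stop (SD, n = 7). The share with a stop differed between the out-of-frame remainders, 33.2% ± 1.68 at a remainder of 1 base and 17.3% ± 1.16 at 2 bases (SD, n = 7). Where no D segment could be matched, 6.46% ± 0.873 of in-frame and 13.2% ± 2.43 of out-of-frame joins held a stop codon (SD, n = 7).

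Ighv1-2, annotated as a pseudogene, ends in a stop codon, with 1 codon between it and the Cys codon. It was among the 10 most used V segments and gave 54.3% ± 3.69 in-frame joins (SD, n = 7). The TGA was still whole in 15.2% (lowest), 19.8% (median) and 38.3% (highest) of its in-frame joins, and in 31.6%, 44.4% and 58.9% of its out-of-frame joins. It was kept less often in frame in every library, by 11.6 to 39.1 points. Its V end had lost 2.20 ± 0.222 bases in frame and 1.51 ± 0.280 out of frame (SD, n = 7), and since trimming enters the frame rule no test is given.

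The frame in which a D segment is read relative to JH4 is set when D joins JH4, before V is added. For 6 of 11 distinct D cores the 3 frames encode a tyrosine-rich stretch, a stretch with a stop codon and a remaining one, and these frames are named so here. Only joins matched to 1 of these 6 cores have a D frame, and D frame shares are shares of those joins. On average they were 2905 of 7237 in-frame and 2508 of 5715 out-of-frame joins in a library. The tyrosine-rich frame took 61.8% ± 1.40 of such in-frame joins, from 59.6% to 63.5%, and 45.3% ± 1.42 of such out-of-frame joins, from 44.0% to 47.5% (SD, n = 7). The difference was 16.5 ± 0.906 points, higher in frame in 7 of 7 libraries. The stop-containing frame took 22.2% ± 1.27 in frame, from 20.1% to 23.9%, and 37.9% ± 1.17 out of frame, from 36.3% to 39.4%. That difference was -15.7 ± 1.36 points, and both differences had an adjusted p of 0.0234 (exact sign-flip permutation test, two-sided). The remaining frame was low in both classes, at 16.06% ± 1.06 and 16.9% ± 0.830 (SD, n = 7, adjusted p = 0.25 by the same exact test).

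DJ joins without a V segment, read in the same libraries, give the D frame where no V had been joined. Whether they stand for the DJ joins to which V segments were added was not tested. A D frame could be given to 11510 to 18271 DJ joins in a library. Their tyrosine-rich frame took 41.7% ± 1.70, their stop-containing frame 34.1% ± 1.09 and their remaining frame 24.2% ± 2.36 (SD, n = 7). Out-of-frame V joins were higher than DJ joins by 3.54 ± 1.97 points for the tyrosine-rich frame and by 3.78 ± 1.89 points for the stop-containing frame, and lower by 7.31 points for the remaining frame, each in 7 of 7 libraries (exact sign-flip permutation test, two-sided, adjusted p = 0.0156 for each). In-frame joins differed from DJ joins by 20.05 ± 2.04 points for the tyrosine-rich frame, -11.9 ± 2.05 points for the stop-containing frame and -8.12 ± 2.92 points for the remaining frame (adjusted p = 0.0156 for each by the same exact test). In DJ joins the D end was read from its position and in V joins from a match of at least 8 bases, so the measures are not quite the same. The pooled shares were also not matched for D use, which differed. D_114714725 had 11981 DJ joins with a D frame, but 362 in-frame and 331 out-of-frame V joins. These comparisons with DJ joins were added after the data were seen.

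**Figure D2:**
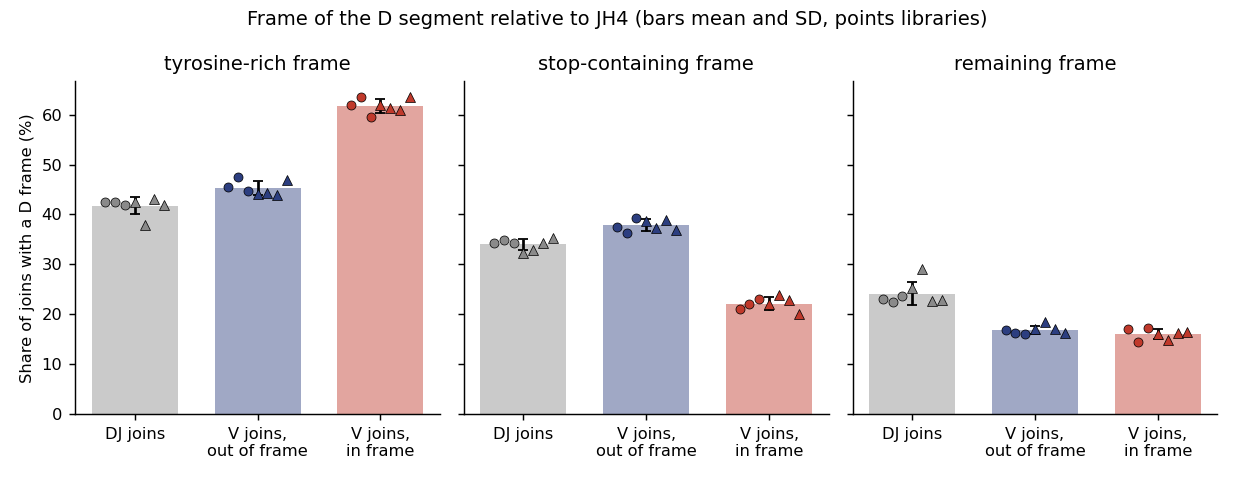
Share of joins with a D frame (%, y axis) in the tyrosine-rich, stop-containing or remaining frame relative to JH4, in DJ joins, out-of-frame and in-frame V joins. Bars are means, lines SDs and points the 7 libraries (circles WT, triangles VH81X-CBEscr/scr). The tyrosine-rich frame stands at 41.7%, 45.3% and 61.8%, and the stop-containing frame at 34.1%, 37.9% and 22.2%.

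The same order was seen in single D segments. In DFL16.1, the most used D segment, the tyrosine-rich frame took 60.5% ± 3.25 of in-frame joins, 44.3% ± 2.93 of out-of-frame joins and 39.5% ± 1.15 of DJ joins (SD, n = 7). In D_114705399 these shares were 65.7% ± 1.83, 46.0% ± 1.2 and 41.8% ± 3.31, and in D_114727777 they were 65.1% ± 4.60, 50.5% ± 4.84 and 46.9% ± 2.41 (SD, n = 7). The remaining frame varied most between D segments, from 2.27% in D_114727777 to 25.2% in D_114700407/D_114710077 among the in-frame joins of the named D segments with such frames.

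Stop codons followed the D frame, which for in-frame joins is in part given by how the frames are named. Among in-frame joins, 63.9% ± 6.42 of those with the stop-containing frame held a stop codon, against 3.15% ± 1.17 of those with the tyrosine-rich frame (SD, n = 7). Out of frame, V reads the D segment in another frame than JH4 does, and 48.6% ± 3.73 of joins with the tyrosine-rich frame relative to JH4 held a stop codon in the frame of V, against 7.75% ± 2.34 with the stop-containing frame. Read from the V side, out-of-frame joins with a D frame held the tyrosine-rich frame in 27.2% ± 2.1, the stop-containing frame in 32.0% ± 2.05 and the remaining frame in 40.8% ± 1.72 (SD, n = 7).

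A D segment was matched in 56.6% ± 0.987 of in-frame and 59.95% ± 1.01 of out-of-frame joins, over a mean of 12.6 and 12.8 bases. Of 11 D cores tested by limma-voom with the library as a block, 6 (54.5%) took a larger share of in-frame joins and 2 (18.2%) a larger share of out-of-frame joins. With fold changes centred on the median of all D cores, the counts were 2 and 5. DFL16.1 took 26.1% ± 2.66 of in-frame and 22.3% ± 0.291 of out-of-frame joins with a D segment, higher in frame in 7 of 7 libraries (log2 fold change 0.21 ± 0.06 SE, adjusted p = 0.000957). This call was lost after centring (log2 fold change 0.00, adjusted p = 1.00).

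D_114705399 took 14.9% ± 2.17 in frame and 21.8% ± 1.29 out of frame, lower in frame in 7 of 7 libraries (log2 fold change -0.55 ± 0.06 SE, limma adjusted p = 5.94e-11). D_114695747, with a stop codon in 2 of its 3 frames, took 6.44% ± 1.38 in frame and 9.42% ± 1.23 out of frame (log2 fold change -0.57 ± 0.11 SE, lower in 6 of 7 libraries). The pair of identical cores D_114700407/D_114710077 took 16.08% ± 1.2 and 16.4% ± 0.97 and did not pass (limma adjusted p = 0.740), while its centred fold change of -0.23 did (adjusted p = 0.000392). D_114719358 and D_114727777 had log2 fold changes of 0.35 ± 0.09 SE and 0.21 ± 0.08 SE, and neither passed after centring (limma adjusted p = 0.175 and 1.00). The call for D_114727777 was also lost with marked duplicates left out (0.0786) and without VH81X-CBEscr/scr replicate 4 (0.0650).

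In-frame shares of the D cores themselves ran from 44.5% to 62.9%. The 3 cores with no stop codon in any frame, D_114687612, D_114719358 and D_114723458, gave 61.9% ± 5.65, 59.7% ± 6.26 and 59.9% ± 5.46 in-frame joins (SD, n = 7), and they were singled out after their values were seen. DQ52, with a stop codon in 1 frame, gave the highest share of all cores, 62.9% ± 7.33. DFL16.1 gave 57.9% ± 2.94 and D_114705399 gave 44.7% ± 5.21, although both have a stop codon in 1 frame. Some cores are nearly identical, and joins whose best match was shared by more than 1 core, 9.09% of in-frame and 10.4% of out-of-frame joins, were left out.

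VH81X and the V segments within 100 kb of it took larger shares of out-of-frame joins, and 4 of the 5 groups of segments farther away took larger shares of in-frame joins, the exception being 1 to 1.5 Mb. Shares within a class add up to a fixed total, so a smaller share of near segments raises those of others, and these differences are not independent. VH81X (Ighv5-2), known as the most often rearranged V segment of early pro-B cells, took 4.60%, 5.98% and 5.34% of in-frame and 14.8%, 11.9% and 15.9% of out-of-frame joins of WT replicates 1 to 3. In VH81X-CBEscr/scr replicates 1 to 4 it took 0.157%, 0.0479%, 0.0837% and 0.0226% in frame and 0.652%, 0.102%, 0.133% and 0.358% out of frame, from 8 to 46 joins a library. The out-of-frame share was the higher one in each library. The mean difference in log2 share was -1.72 ± 1.10 (SD, n = 7, exact sign-flip permutation test, two-sided, p = 0.0156, adjusted p = 0.0188). In limma-voom the log2 fold change was -1.48 ± 0.13 SE (adjusted p = 3.08e-11), at -1.43 with WT libraries alone and -1.90 with VH81X-CBEscr/scr libraries alone. Without the library as a block it was -1.70 and did not pass (adjusted p = 0.291).

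The 6 V segments within 100 kb upstream of VH81X took 8.59% (lowest), 14.0% (median) and 18.3% (highest) of in-frame joins and 14.8%, 27.7% and 34.0% of out-of-frame joins. Each library had the higher share out of frame. The difference in log2 share was -0.94 ± 0.12 (SD, n = 7, exact permutation adjusted p = 0.0188). Segments from 100 to 500 kb, 500 kb to 1 Mb and 1.5 to 2.1 Mb took larger shares in frame, by 0.30 ± 0.16, 0.47 ± 0.11 and 0.26 ± 0.19 on the log2 scale. Segments over 2.1 Mb away took 12.3% ± 0.420 in frame and 7.49% ± 1.24 out of frame, with a difference in log2 share of 0.73 ± 0.22. These 4 differences had one sign in 7 of 7 libraries (exact permutation adjusted p = 0.0188 for each). From 1 to 1.5 Mb the shares were 23.8% ± 1.53 and 23.8% ± 2.66 (exact permutation adjusted p = 0.903), and with lines marked as duplicates left out this group was lower in frame (log2 difference -0.12, adjusted p = 0.0188). For 1.5 to 2.1 Mb the call was lost with those lines left out (exact permutation adjusted p = 0.0682) and with VH81X left out of the total (adjusted p = 0.0573).

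By V family, VH1, the largest one in the mouse, and VH10 took larger shares in frame (log2 differences 0.38 ± 0.10 and 0.32 ± 0.21), and VH2 and VH5, which hold the segments nearest JH4, smaller shares (-0.44 ± 0.14 and -0.29 ± 0.18), each in 7 of 7 libraries (SD, n = 7, exact permutation adjusted p = 0.0188 for each). Within VH5 10 of 22 tested segments (45.5%) were higher in frame and 7 (31.8%) lower, close to the 49.5% and 26.1% of all tested segments. The counts therefore do not set VH5 apart, although its share was smaller in frame. Its median log2 fold change was 0.26, below that of all tested segments. Within VH2 4 of 14 were higher and 7 lower, a smaller part higher and a larger part lower than among all tested segments. These counts were not tested. The call for VH10 was lost with marked duplicates left out (log2 difference 0.04, adjusted p = 0.328). VH8 took 4.51% ± 0.552 and 4.504% ± 0.412 (adjusted p = 0.969 by the same exact test), and 2 of its 5 tested segments were higher and 3 lower in frame, beside 49.5% and 26.1% of all tested segments. With marked duplicates left out VH8 was lower in frame (log2 difference -0.30, adjusted p = 0.0188 by the same exact test).

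**Figure D3:**
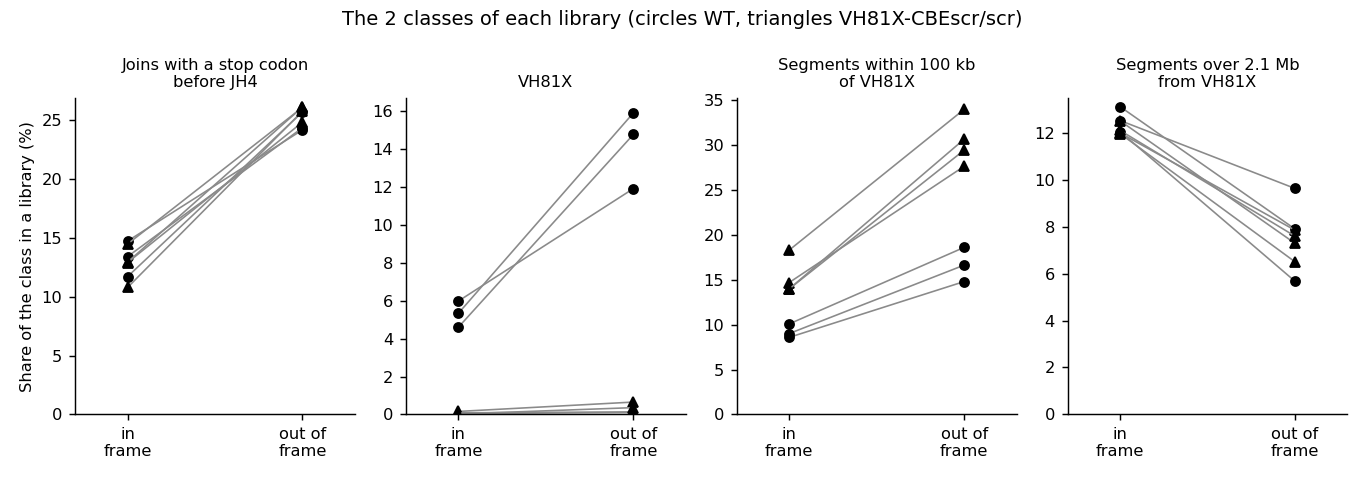
Share (%, y axis, from 0) of the in-frame and of the out-of-frame joins of each library that hold a stop codon before JH4, use VH81X, use a segment within 100 kb of VH81X or use one over 2.1 Mb away; lines join the 2 classes of a library (circles WT, triangles VH81X-CBEscr/scr). In each panel all 7 lines run the same way, up for the first 3 panels and down for the most distant segments.

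Of 111 V segments with at least 10 joins on average in either class, 55 (49.5%) took a larger share of in-frame joins and 29 (26.1%) a larger share of out-of-frame joins (limma-voom with the library as a block, Benjamini-Hochberg adjusted p under 0.05). The median log2 fold change was 0.50, and with fold changes centred on it the counts were 6 and 34. The in-frame share of a segment's own pooled joins needs no such scale. It lay between 60% and 70% in 53 segments, between 70% and 80% in 19 and above 80% in 1, while 8 segments lay between 50% and 60%, 11 between 40% and 50%, 12 between 30% and 40% and 7 below 30%. Fewer segments were called in part of the libraries, with 36 higher and 21 lower in WT libraries alone and 29 and 22 in VH81X-CBEscr/scr libraries alone. All of these were also called, with the same sign, in the fit of all 7 libraries.

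**Figure D4:**
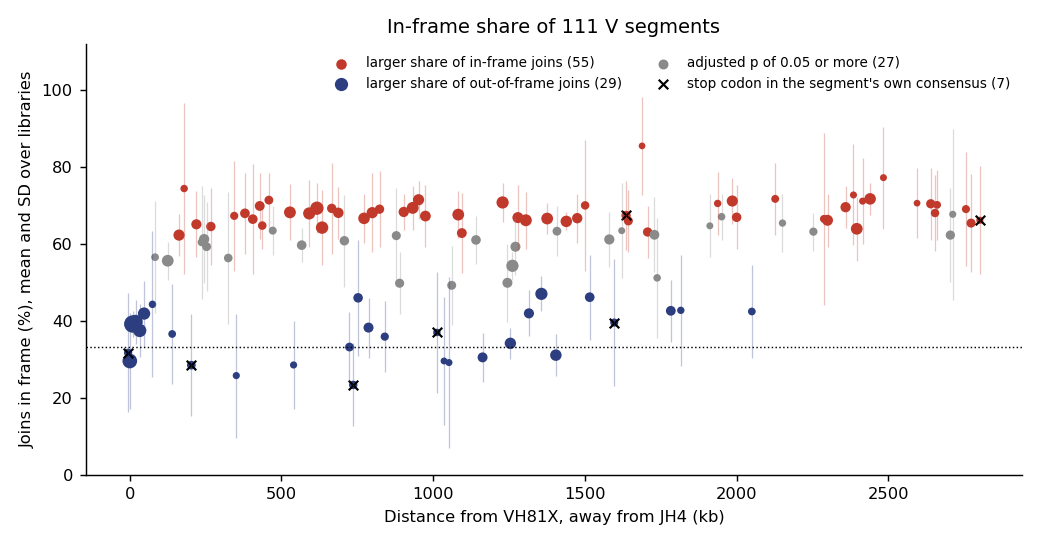
In-frame share (%, y axis, mean and SD over libraries) of 111 V segments against their distance from VH81X away from JH4 (kb, x axis), with point size by number of joins, colours by the limma-voom call and crosses for the 7 segments with a stop codon in their own consensus; the dotted line is 33.3%. The median segment lies at 64.0%, the 6 segments within 100 kb have a median of 40.8%, and the 20 segments over 2.1 Mb away have a median of 68.6%.

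Besides VH81X, the most used segments nearest JH4 were alike in their low in-frame share. Ighv2-2, the next segment upstream of VH81X, gave 33.4% (lowest), 39.4% (median) and 44.0% (highest) in-frame joins, and took 6.17% ± 2.44 of in-frame against 12.1% ± 4.92 of out-of-frame joins (log2 fold change -0.98 ± 0.08 SE, limma adjusted p = 7.02e-12). Ighv5-4 gave 29.9%, 41.3% and 47.3% in frame, and Ighv2-3 gave 27.2%, 36.2% and 44.7%. Their log2 fold changes were -0.92 ± 0.10 SE and -1.05 ± 0.12 SE. Ighv5-6 gave 30.6%, 43.2% and 55.2% (log2 fold change -0.85 ± 0.14 SE, lower in 6 of 7 libraries), and its call was lost with WT libraries alone (adjusted p = 0.0882). None of these held a stop codon in its consensus.

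Other highly used segments gave mostly in-frame joins. V_115453076, a VH2 segment 617 kb from VH81X, gave 61.3% (lowest), 68.1% (median) and 82.1% (highest) in frame, and took 3.35% ± 0.492 of in-frame and 1.96% ± 0.683 of out-of-frame joins (log2 fold change 0.78 ± 0.13 SE, limma adjusted p = 7.76e-06). V_116065104, for which no family was assigned, gave 64.4%, 70.9% and 80%, with a log2 fold change of 0.95 ± 0.14 SE. V_115470146, a VH10 segment, gave 49.2%, 64.0% and 79.9% (log2 fold change 0.55 ± 0.15 SE, higher in 6 of 7 libraries), a call lost with marked duplicates left out (adjusted p = 0.0681) and with VH81X-CBEscr/scr libraries alone (0.0767). Only V_116065104 of these 3 passed after centring.

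Ighv15-2, the only segment of its family here, gave 39.4%, 48.4% and 51.8% in frame (log2 fold change -0.50 ± 0.13 SE, lower in 6 of 7 libraries), a call just lost with VH81X-CBEscr/scr libraries alone (limma adjusted p = 0.0501). Ighv1-2, with the stop codon in its own end, did not pass (log2 fold change -0.08 ± 0.13 SE, limma adjusted p = 0.529) until duplicates were left out (-0.39, adjusted p = 0.000855) or fold changes were centred (-0.58, adjusted p = 0.000257).

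Among segments higher in frame in every library with at least 10 of their joins, the largest positive fold changes belonged to VH1 segments over 1.5 Mb away, to Ighv8-12, to V_115788124, a VH10 segment, and to V_116065104. V_115015512, a VH5 segment 179 kb away named after its value was seen, had a log2 fold change of 1.25 ± 0.41 SE (limma adjusted p = 0.00913) but was higher in 6 of 7 libraries. Ighv1-37 gave 82 in-frame of 98 joins, with a log2 fold change of 2.03 ± 0.41 SE in favour of in-frame joins (limma adjusted p = 8.20e-05). Ighv1-70 gave 94 in-frame and 27 out-of-frame joins (log2 fold change 1.5 ± 0.42 SE), Ighv1-66 gave 95 and 34 (1.07 ± 0.36 SE) and Ighv1-59 gave 171 and 64 (1.01 ± 0.28 SE). Ighv8-12 had more joins, 985 and 386, at 65.8% (lowest), 71.5% (median) and 79.6% (highest) in frame (log2 fold change 1.01 ± 0.14 SE, limma adjusted p = 5.02e-07). Ighv1-54 and V_115788124 gave 71.2% ± 5.96 and 71.5% ± 4.89 in frame (SD, n = 7). The calls of Ighv1-70, Ighv1-66 and Ighv1-59 were lost after centring (limma adjusted p = 0.0584, 0.239 and 0.167) and with VH81X-CBEscr/scr libraries alone (0.118, 0.0501 and 0.0501), and that of Ighv1-66 also with WT libraries alone (0.144). Only 66.8% of the joins of Ighv1-59 and 85.3% of those of Ighv1-66 matched their own segment best.

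By the same limit on sign, the largest negative fold changes came from segments of several families. V_115572761, a VH1 segment with a stop codon in its own consensus, though in only 0.962% of single reads, gave 9.68% (lowest), 22.0% (median) and 44.8% (highest) in frame (log2 fold change -2.11 ± 0.29 SE, limma adjusted p = 3.71e-07). Ighv1-11 had no stop codon in its consensus and is annotated as a V segment, and gave 26.0%, 30.6% and 41.5% in frame from 415 in-frame and 915 out-of-frame joins (log2 fold change -1.47 ± 0.15 SE, limma adjusted p = 7.25e-10). V_115999120 gave 19.9%, 32.2% and 38.8% (log2 fold change -1.55 ± 0.19 SE). V_115187353, V_115376250, V_115872075 and V_115888313 had 113 to 140 joins each, in-frame means of 25.8% to 29.6%, and no stop codon in their consensus. The call of V_115872075 was lost with WT libraries alone (limma adjusted p = 0.141). WT replicate 2 held 37 of the 90 out-of-frame joins of V_115888313, which had too few joins to be tested without that library.

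**Figure D5:**
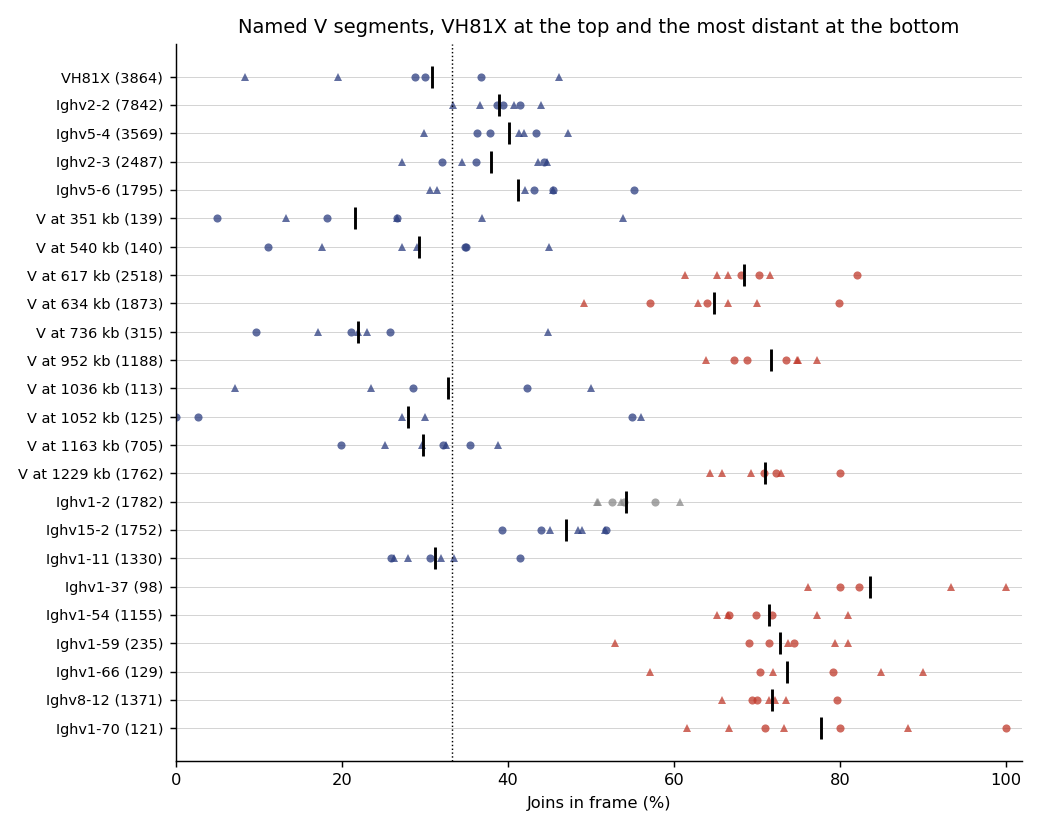
In-frame share (%, x axis) of the named V segments, from VH81X at the top to the most distant at the bottom, with points for libraries that hold at least 10 joins of the segment (circles WT, triangles VH81X-CBEscr/scr), a black bar for all joins pooled and the number of joins in brackets; segments without a table name are given by distance from VH81X, and the dotted line is 33.3%. VH81X, with 30.9% of 3864 pooled joins in frame, and Ighv1-11, with 31.2%, lie near the dotted line, while V_116065104, with 71.0%, lies far to its right.

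A stop codon upstream of the Cys codon, where it is real, leaves a V segment unable to encode a heavy chain. There were 12 segments with one in their read consensus, some of which may stem from thinly covered bases or mixed reads, and together they took 1.94% ± 0.166 of in-frame and 3.25% ± 0.467 of out-of-frame joins, lower in frame in 7 of 7 libraries (difference -1.31 ± 0.519 points, SD, n = 7, exact sign-flip permutation test, two-sided, p = 0.0156). Of 7 that were tested singly, 5 were lower in frame, where 26.1% of all tested segments were, among them Ighv5-1, a pseudogene on the JH4 side of VH81X, with 31.7% ± 15.5 of its joins in frame, and Ighv1-27 with 39.6% ± 16.6 (SD, n = 7). Ighv1-33 and Ighv1-86 went the other way, with 67.4% ± 9.02 and 66.2% ± 14.0 in frame. Single reads, which reach at most 40 codons upstream here, held a stop codon in 73.3% of cases for Ighv5-1 and 93.7% for Ighv1-27, but in 0.292% to 5.36% for the other 5 tested segments, and whether the consensus is right there was not tested. Only 4 of the 12 segments had a stop codon in at least 50% of single reads, and for those 4 the difference was -0.552 points (exact permutation p = 0.0312). Of the 29 segments lower in frame, 24 had no stop codon in their consensus, beside 104 of all 111 tested segments. Segments annotated as pseudogenes took 3.696% ± 0.477 of in-frame and 4.27% ± 0.313 of out-of-frame joins, and this difference did not pass (exact permutation p = 0.0625, lower in frame in 5 of 7 libraries), but it passed with marked duplicates left out (-0.862 points, p = 0.0156), in distinct joins (-0.727, p = 0.0156), with joins that match their own segment best (-0.711, p = 0.0312) and without indels (-0.558, p = 0.0469).

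In-frame joins were then divided by whether they could be read through, a division added after the data were seen. Joins without a stop codon from Cys to Trp and without one in the V consensus, with the same doubt about some consensus stops, are called open here. They were 85.3% ± 1.47 of in-frame joins and 47.5% ± 3.32 of all joins (SD, n = 7). The other in-frame joins are called in-frame joins with a stop codon. They include every in-frame join of a segment with a consensus stop, whatever the join itself holds. No such segment is VH81X or lies within 100 kb upstream of it, which by itself lowers the shares of VH81X and of that group in this class. The segments within 100 kb took 11.6% ± 3.10 of open joins, 18.7% ± 6.53 of in-frame joins with a stop codon and 24.5% ± 7.67 of out-of-frame joins, with each step in the same direction in 7 of 7 libraries (log2 differences -0.64 ± 0.20 and -0.41 ± 0.11, SD, exact permutation adjusted p = 0.0234 for each). VH81X took 3.54%, 4.66% and 4.24% of the open joins of WT replicates 1 to 3, 11.5%, 12.6% and 11.6% of their in-frame joins with a stop codon and 14.8%, 11.9% and 15.9% of their out-of-frame joins. Between open and out-of-frame joins its log2 share differed by -2.28 ± 1.17 (SD, n = 7, exact permutation adjusted p = 0.0234). This difference ran from -3.97 to -0.869 over libraries. In VH81X-CBEscr/scr replicates 1 to 4 only 9, 3, 6 and 2 VH81X joins were in frame, open or not, so the values of these libraries rest on very few joins. Between in-frame joins with a stop codon and out-of-frame joins it differed by 0.20 ± 0.80 over the 5 libraries in which VH81X was found in both (exact permutation p = 0.812, where 5 pairs allow no p below 0.0625).

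Segments over 2.1 Mb away took 12.9% ± 0.531 of open joins, 8.71% ± 0.885 of in-frame joins with a stop codon and 7.49% ± 1.24 of out-of-frame joins (SD, n = 7). Open joins differed from in-frame joins with a stop codon by 0.58 ± 0.16 in log2 share, higher in 7 of 7 libraries (exact permutation adjusted p = 0.0234). In-frame joins with a stop codon differed from out-of-frame joins by 0.23 ± 0.27, higher in 6 of 7 libraries (adjusted p = 0.0879 by the same exact test). Any segment over 2.1 Mb away with a consensus stop adds all its in-frame joins to the class with a stop codon. By itself that raises the group's share in this class, so this difference cannot be read apart from the assignment. With the same limit, it passed with marked duplicates left out (exact permutation adjusted p = 0.0402) and in distinct joins (0.0201). It also passed without WT replicate 2 (0.0402) and with joins that match their own segment best (0.0201).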

How the data were processed

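Bowtie2 and mm9 are the tool and build named in the submitters' processing notes; versions and filters are not given in the sources used here. The deposited files list 1 junction per line with positions, alignment strings, read sequence and a duplicate mark, and hold no counts, so lines were counted here. V segments were clusters of 10 or more junctions in which neighbours lay no more than 300 bp apart. Consensus bases came from the reads. Of 158 segments, 89 were named by spacing from a GRCm38.p6 gene table, within 60 bp, VH81X being its Ighv5-2, and the rest by position. Names of distant segments are those of the reference position, since many reads there match another segment better. VH families were taken from those names, or from at least 80% identity over 60 bases with a named segment. A stop codon in a segment's own consensus was sought in up to 85 codons upstream of Cys, at bases covered by at least 5 reads. D segments were matched exactly over at least 8 bases.

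Within-library differences were tested by exact two-sided sign-flip permutation over 128 patterns, on log2 shares for V groups and on percentage points otherwise, and segment counts by limma-voom (limma 3.58.1, R 4.3.3), with Benjamini-Hochberg adjustment and a threshold of 0.05. The limma-voom fit was also tried on simulated counts, in which changes took either sign with equal chance. Fold changes are log2 of the in-frame over the out-of-frame share. Named V segments are the 10 most used, the 8 with the largest positive and the 8 with the largest negative fold change past the threshold with one sign in every library that holds at least 10 joins of the segment, and VH81X; named D segments are the 6 most used. Python 3.11.15, pandas 2.3.3, SciPy 1.17.1 and bwa 0.7.19 were used. Lines come from PCR products with no molecular identifier, so lines and molecules are not the same thing. Members and lists were chosen with earlier results of these data known. Alternatives are given in the closing section.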

Additional observations from a re-analysis of the deposited data

Results flagged for a closer look

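Among the 4 VH81X-CBEscr/scr libraries, 3 values stood apart from the others of their group by Dixon's criterion, which chance meets in about 1 of 20 groups; 85 values were checked. Segments within 100 kb of VH81X took 18.3% of the in-frame joins of replicate 2, against 14.0% to 14.7% in the other 3 libraries. The mean insert of out-of-frame joins was 17.6 bases in replicate 4, against 17.4 bases in the others. The tyrosine-rich D frame took 46.9% of the out-of-frame joins with a D frame in replicate 4, against 44.0% to 44.3%. The 3 matching differences between frame classes kept their sign when any 1 library was left out. Groups of 3 libraries were not checked in this way.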

How the results depend on the processing

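Across the main results and their alternatives, 341 values kept their direction and side of the threshold, a count within 1.5 times the main one or a length within 1 SD. Of the others, 8 moved beyond these limits, 13 changed sign, of which 1 to 1.5 Mb without marked duplicates also passed, 1 passed newly with its sign kept, and 3 lost their call. With fold changes centred on the median, 6 V segments in place of 55 were higher in frame, and D segments went from 6 to 2 higher and from 2 to 5 lower. With WT libraries alone 36 V segments were higher, and with VH81X-CBEscr/scr libraries alone 29. Without the replicate block (the library), 52 V segments were higher and 25 lower, and D counts stayed at 6 and 2; among named segments only VH81X lost its call (-1.70, adjusted p = 0.291).

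Lines not marked as duplicates gave log2 differences of -0.12 for 1 to 1.5 Mb (adjusted p = 0.0188), 0.15 for 1.5 to 2.1 Mb (0.0682), -0.30 for VH8 (0.0188) and 0.044 for VH10 (0.328), all by the exact permutation test. They gave 0.11 points for the remaining D frame, and differences of -0.850 bases in insert, -0.0187 in JH4 trimming and -0.959 in CDR3 length. Among the added comparisons they gave -0.11 for VH81X in in-frame joins with a stop against out-of-frame joins, and 0.00042 for lines per distinct join. Distinct joins gave -0.015 for 1 to 1.5 Mb and -0.088 for that VH81X comparison, which was -0.13 without VH81X-CBEscr/scr replicate 3. Lines per distinct join passed without that library (-0.0589, exact p = 0.0312). With VH81X out of the denominator, 1 to 1.5 Mb gave -0.054 and 1.5 to 2.1 Mb 0.20 (adjusted p = 0.0573). VH8 was 0.018 with joins that match their own segment best, 0.013 without indels and 0.0019 where the read holds the Cys codon, an alternative chosen after seeing the data. The cause of these changes was not tested.

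Leaving out 1 library at a time gave 45 to 56 V segments higher and 25 to 29 lower, 5 to 6 D segments higher and 2 lower, -0.016 to 0.031 for 1 to 1.5 Mb, -0.043 to 0.028 for VH8 and -0.13 to 0.37 for that VH81X comparison. It gave in-frame shares of 55.0% to 56.5%, stop codon differences of -12.8 to -11.9 points, tyrosine-rich frame differences of 16.3 to 16.8 points, and -1.90 to -1.34 for the share of VH81X. With 7 pairs no exact p can fall below 0.0156, and with 6 below 0.0312. VH81X rests on 8 to 46 joins in each VH81X-CBEscr/scr library, inserts end at 30 bases, and lines copied by PCR and lines from cells of 1 clone cannot be told apart.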
